A study of Nothobranchius furzeri with 30 samples.

Results

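Pre-mRNA splicing factors and heterogeneous nuclear ribonucleoproteins (hnRNPs) were followed through ageing in the neural retina of the African turquoise killifish, Nothobranchius furzeri. Members were taken by short name from the deposited gene table. Their names begin with SRSF, TRA2, HNRNP, HNRP, SF3A, SF3B, U2AF, SNRNP, SNRP, LSM, PRPF, RBM, CELF, NOVA, PTBP, RBFOX or MBNL. After SRSF, SF3A, SF3B, LSM, PRPF, RBM, CELF, NOVA and PTBP a digit had to follow, and after TRA2 an A or B. Every locus that met this was a member. The rule found 143 of 24989 loci, and used no measured value. RNA came from wild-type, untreated females of the inbred, short-lived GRZ-AD strain, with 10 fish at 6 weeks (young adult), 10 at 12 weeks (middle-aged) and 10 at 18 weeks (old), and all 30 fish share sex, strain and husbandry. The retinal pigment epithelium (RPE), the pigmented layer behind the photoreceptors, had been rinsed off before RNA extraction. Its markers were still counted in every library. The retinas of 1 fish formed 1 library. Each library was made with the QuantSeq 3′ mRNA protocol, in which 1 read near the polyadenylation site stands for 1 transcript, so that counts do not grow with transcript length and carry no information on which exons were joined.

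Splicing is carried out by the spliceosome, a machine that is assembled anew on each intron. The U1 small nuclear ribonucleoprotein (snRNP) marks the 5′ splice site, U2AF and the U2 snRNP with its SF3A and SF3B subunits mark the 3′ splice site and branch point, and the U4/U6.U5 tri-snRNP with the PRPF proteins then joins and is remodelled into the catalytic form. The Sm proteins form the ring at the core of most of these particles, and some of the LSM proteins form the matching ring on U6. SR proteins, which carry arginine-serine repeats, and hnRNPs bind the transcript itself and favour or oppose the use of nearby exons. CELF, RBFOX, NOVA, MBNL and PTBP proteins do so to a degree that differs between tissues, and are grouped below as tissue-restricted regulators. Retina depends on this machinery to an unusual degree, since inherited mutations in human PRPF3, PRPF6, PRPF8, PRPF31 and SNRNP200, which every cell uses, lead to retinitis pigmentosa, a degeneration of the photoreceptors.

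Between 3552371 and 5840792 reads per fish were counted on loci. Values are counts per 1000000 reads (CPM) after scaling by TMM factors, which assume that most loci do not change between libraries. Of the 143 loci, 123 had enough counts to be tested, among 13975 loci tested in all. The other 20 had at most 211 reads over the 30 fish, and 3 of them, RBM24(1OF2), RBM46 and 1 of the loci named U2AF2 (XLOC_011271), had none. Since whole retinas were measured, a lower level may stand for fewer cells of a type or for less RNA per cell, and these cannot be told apart. RPE markers were lower at 18 weeks than at 6 weeks at 9 of 12 tested loci (summed level 384 to 894 CPM at 18 weeks, against 858 to 1762 CPM at 6 weeks), among them RPE65A, with 194 CPM on average at 18 weeks and 553 CPM at 6 weeks. Cone markers were lower at 7 of 9 tested loci (summed level 4271 to 5660 CPM at 18 weeks, against 6442 to 10105 CPM at 6 weeks) and immune cell markers higher at 5 of 9 (57.3 to 67.7 CPM, against 21.9 to 99.2 CPM). Rod markers, which were abundant in every library as a retina requires, were higher at 4 of 12 (15929 to 23992 CPM, against 16027 to 20469 CPM). Müller glia markers were higher at 3 and lower at 2 of 8 tested loci (2095 to 2626 CPM, against 1788 to 2179 CPM), and oligodendrocyte markers higher at 3 and lower at 1 of 8 (273 to 686 CPM, against 196 to 557 CPM). Markers of bipolar, amacrine, horizontal and ganglion cells were higher at 3 and lower at 3 of 18 (2128 to 3411 CPM, against 1914 to 2377 CPM), and those of proliferating cells higher at 1 and lower at 1 of 9 (183 to 406 CPM, against 172 to 225 CPM). Of 2 tested lens loci 1 was higher, and of 2 tested red blood cell loci 1 was lower. These marker counts are calls of the test described below, at a false discovery rate under 0.05. Of all tested loci, 14.0% were called higher and 15.2% lower. Counts near those shares are not read as a shift of the cell type. The part of the marker differences in the results below was not tested. The paper observed that RPE adhered more to young retinas, and proposes that some falls of RPE genes may be an artifact of its removal. For the RPE, the fit was repeated with the mean log2 CPM of its markers, centred over all fish, as a covariate, but that mean ran between -1.03 and 0.08 at 18 weeks and between 0.04 and 0.98 at 6 weeks, and 9 of 10 young fish exceeded every old fish. A call lost in that fit therefore cannot be told apart from a loss of the age difference itself. The 18-week fish numbered 1 stood apart from its age group, and the calls at 18 against 6 weeks that were lost without it are named.

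As a group the splicing genes were well expressed, and with TMM scaling their summed level did not separate the ages. Mean levels of the 123 tested loci over all fish ran between 3.06 and 321 CPM with a median of 32.6 CPM, against a median of 14.0 CPM over all loci tested. HNRNPR (XLOC_024504), an RNA-binding protein that accompanies mRNA in neurons, was the most abundant, followed by HNRNPA0(1OF5) (XLOC_004617) at 264 CPM and SRSF11 (XLOC_023419) at 226 CPM. The authors' percent detection of each locus was read here as a share of single cells, pooled over ages. For these loci it ran between 0.764% and 62.1% with a median of 14.3%, against 6.54% for all loci tested. The order of the loci by bulk level and by single-cell detection was much alike (Spearman's rho of 0.83 across the 123 loci, which share libraries and are not independent replicates). The summed level of all 143 loci was 6064 to 6391 CPM at 6 weeks, 6036 to 6213 CPM at 12 weeks and 5897 to 6625 CPM at 18 weeks, so that the ranges of all 3 ages overlapped. The highest 18-week value was that of fish 1, and the next was 6181 CPM. Scaled to library size alone, the mean was 6789 CPM at 18 weeks (5821 to 7563 CPM) and 5651 CPM at 6 weeks (4998 to 6166 CPM).

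Which of these genes differ between old and young retinas was asked with edgeR's quasi-likelihood test over all tested loci, with Benjamini-Hochberg adjustment (false discovery rate, FDR). At an FDR under 0.05, 16 of the 123 loci rose and 26 fell at 18 weeks relative to 6 weeks. The share that rose (13.0%) was close to the 14.0% of all tested loci called higher, and the share that fell (21.1%) was above the 15.2% called lower. The changes were small. The median log2 fold change (log2FC) of the members was 0.00, against 0.02 over all loci, and the median size of a change without regard to sign was 0.22, against 0.24. With a log2FC of at least 1 required as well, 1 locus was called higher, RBM44, and 1 lower, RBM47. Of all tested loci, 1.31% passed these thresholds upwards and 2.03% downwards. The paper reports the opposite balance between old and young retinas, with more genes rising than falling. The scaling behind its counts is not given in its text, and the cause of the difference was not tested. The levels of all 10 old fish lay above those of all 10 young fish for 1 member, SRSF5A, and below them for 4, CELF2 (XLOC_005677), CELF3A, CELF5(2OF2) and RBM26. Among all tested loci this held for 1.01% upwards and 1.33% downwards.

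**Figure D1:**
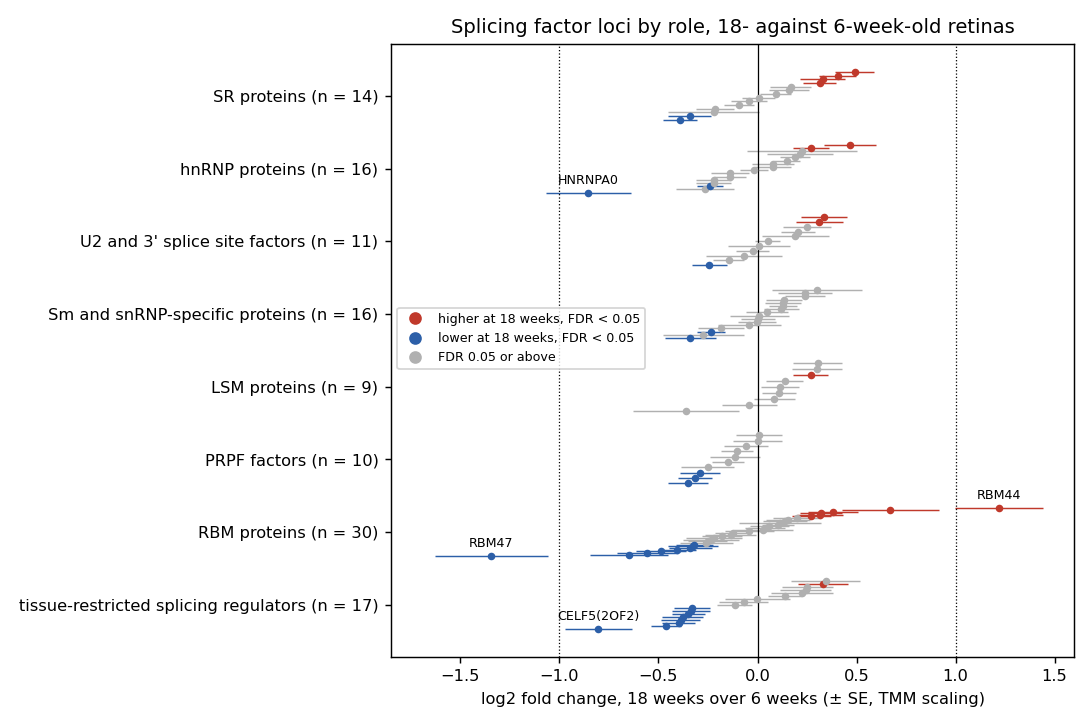
The log2 fold change of the 123 tested loci between 18 and 6 weeks (x axis, TMM scaling, bars: SE, 10 fish per age), grouped by the protein's role (y axis), with loci called at an FDR under 0.05 in colour. Only RBM44 and RBM47 lie beyond the dotted lines at a log2FC of 1 and -1, and 8 of the 26 falls are in the bottom group; scaled to library size alone, every value moves up and 4 of the 26 falls turn positive.

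The direction of the falls has to be read against the scaling. TMM factors ran higher in old fish (0.991 to 1.21) than in young fish (0.827 to 0.995), and with library size alone the median log2FC of all loci moved up to 0.32. On that scale 62 members were called higher (50.4%, against 46.1% of all loci) and 3 lower (2.44%, against 4.56%). All 16 risen loci were called higher there too. Of the 26 fallen loci, 3 were still called lower, RBM47 with a log2FC of -1.06 (FDR = 0.00145), HNRNPA0 (XLOC_012280) with -0.56 (FDR = 0.0319) and CELF5(2OF2) with -0.50 (FDR = 0.0155), and 4 changed sign, PRPF3, SNRPC, SF3B2 and HNRNPUL1. All 26 lay below the shifted median of all loci and all 16 above it, so the order of the loci was kept while the zero line moved. In what follows "rose" and "fell" are relative to the bulk of the transcriptome.

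**Figure D2:**
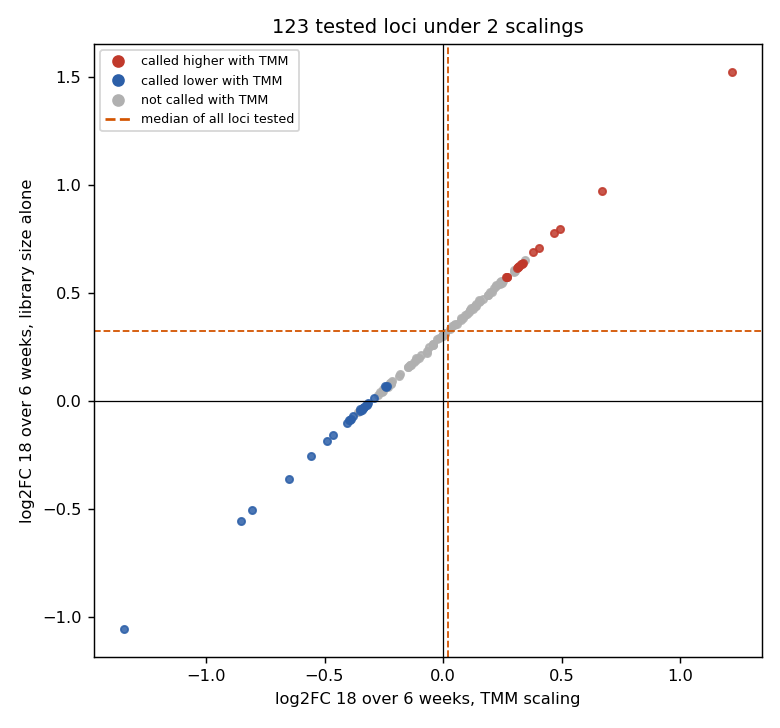
The log2 fold change between 18 and 6 weeks of the 123 tested loci under TMM scaling (x axis) and under library size alone (y axis), coloured by the TMM call, with dashed lines at the medians of all loci tested (0.02 and 0.32). The points keep their order along a line and are lifted as a body, which leaves most of the loci called lower with TMM close to 0 on the y axis.

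Among the 14 SR protein loci, 4 rose and 2 fell. The counts of each role group, here and below, stand against 14.0% of all tested loci called higher and 15.2% called lower. SRSF5A (XLOC_022532), an SR protein that activates exons through purine-rich enhancers, had a lowest, median and highest level of 38.0, 57.3 and 65.3 CPM at 6 weeks, 42.7, 57.6 and 69.9 CPM at 12 weeks and 67.6, 75.8 and 118 CPM at 18 weeks. The old fish were thus all above the young ones, with no shift at 12 weeks, and the log2FC of 18 over 6 weeks was 0.49 (SE 0.0984, FDR = 0.000239). Its paralogue SRSF5B (XLOC_002639) was scarce, with 5.40 CPM on average at 18 weeks and 6.26 CPM at 6 weeks, and was not called (log2FC -0.22, SE 0.228, FDR = 0.494). Its RefSeq gene overlaps slc10a1, whose reads may be counted with it. SRSF2(2OF2) (XLOC_018229), which binds exonic enhancers and stays in the nucleus, had 88.3, 114 and 131 CPM at 6 weeks, 93.8, 118 and 139 CPM at 12 weeks and 123, 142 and 216 CPM at 18 weeks. Here 6 of 10 old fish exceeded every young fish (log2FC 0.40, SE 0.0938, FDR = 0.00119).

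The other risen SR loci were a locus named SRSF3(2OF2) (XLOC_011520), whose alternative name in the deposited table is srsf7 (log2FC 0.31, FDR = 0.00408), and SRSF6 (0.33, FDR = 0.0270). With TMM scaling, the loci XLOC_016163 and XLOC_016539, which also bear the name SRSF3(2OF2), were not called. SRSF6 lost its call when 18-week fish 1 was left out (0.20, FDR = 0.0846). SRSF11, an SR-related protein that contacts U2AF, has a pair of loci that differed in their calls. SRSF11(1OF2) (XLOC_014701) had 114, 152 and 170 CPM at 6 weeks, 100, 130 and 145 CPM at 12 weeks and 84.9, 111 and 132 CPM at 18 weeks, and fell by 0.39 on the log2 scale (SE 0.0857, FDR = 0.000659). The more abundant SRSF11 (XLOC_023419) had a log2FC of -0.09 (SE 0.0768, FDR = 0.387) with TMM and of 0.21 with library size alone. The difference between the paralogues was not tested, and reads from near-identical copies may have been split between them or dropped. TRA2A (XLOC_022151), a transformer-2 protein that works with SR proteins on exonic enhancers, had 21.1, 29.0 and 35.7 CPM at 6 weeks, 23.0, 28.5 and 38.1 CPM at 12 weeks and 15.3, 21.6 and 28.3 CPM at 18 weeks. It fell by 0.34 (SE 0.109, FDR = 0.0157), with 5 of 10 old fish below every young fish.

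**Figure D3:**
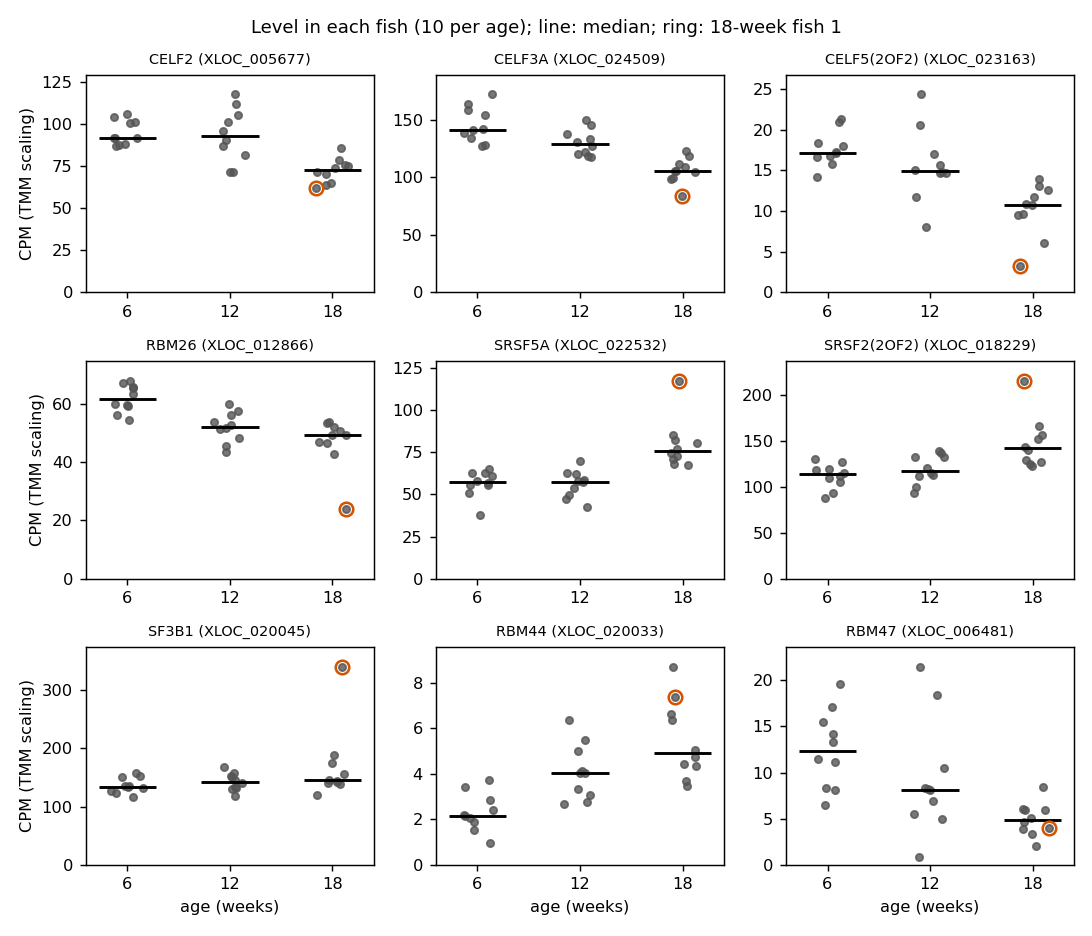
Level in CPM (y axis, from 0, a scale of its own in each panel) of 9 loci in each fish at 6, 12 and 18 weeks (x axis, 10 fish per age, line: median), with 18-week fish 1 ringed. All 18-week fish lie under all 6-week fish for CELF2, CELF3A, CELF5(2OF2) and RBM26 and above them for SRSF5A, and the ringed fish is the extreme of its age for all of these loci and for SRSF2(2OF2) and SF3B1; scaled to library size alone, the means of the first 4 differ less, with log2FC between -0.50 and -0.09.

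Of the 16 tested hnRNP loci, 2 rose and 2 fell, and the 3 most abundant were not called. HNRNPR had 302, 316 and 361 CPM at 6 weeks, 294, 315 and 357 CPM at 12 weeks and 266, 309 and 428 CPM at 18 weeks, with a log2FC of -0.02 (SE 0.0705, FDR = 0.890), which was 0.29 with library size alone. HNRNPA0, a protein of the hnRNP A/B family that binds AU-rich sequences, is spread over several loci. HNRNPA0(1OF5) had a log2FC of 0.15 (SE 0.0658, FDR = 0.0804) and HNRNPA0 (XLOC_004618) of -0.14 (SE 0.0819, FDR = 0.204). The scarce HNRNPA0 (XLOC_012280) had 6.85, 7.92 and 10.2 CPM at 6 weeks, 5.11, 7.58 and 10.5 CPM at 12 weeks and 1.13, 4.13 and 8.78 CPM at 18 weeks. It fell by 0.85 (SE 0.214, FDR = 0.00254), and 9 of 10 old fish were below every young fish, on 6 to 44 reads per old fish and 27 to 43 per young fish.

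HNRNPUL1 (XLOC_011941), an hnRNP U-like protein with a part in the DNA damage response, had 113, 120 and 133 CPM at 6 weeks, 98.5, 114 and 129 CPM at 12 weeks and 83.9, 102 and 114 CPM at 18 weeks. Again 9 of 10 old fish were below every young fish, with a log2FC of -0.24 (SE 0.0657, FDR = 0.00503) that became 0.06 with library size alone. HNRPLL (XLOC_013908), known in mouse lymphocytes as a switch of CD45 splicing, had 9.23, 14.1 and 17.0 CPM at 6 weeks, 11.5, 16.2 and 19.5 CPM at 12 weeks and 12.6, 19.3 and 30.2 CPM at 18 weeks (log2FC 0.47, SE 0.131, FDR = 0.00616). HNRNPUA (XLOC_009981), a copy of the nuclear scaffold protein hnRNP U, averaged 64.4 ± 10.3 CPM at 18 weeks and 53.4 ± 9.28 CPM at 6 weeks (SD, n = 10 each). Its rise of 0.27 (SE 0.0930, FDR = 0.0256) missed the threshold without 18-week fish 1 (0.21, FDR = 0.0560).

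The 11 tested loci for recognition of the branch point and 3′ splice site gave 2 rises and 1 fall. SF3B1 (XLOC_020045), the subunit that clasps the branch point helix, had 117, 134 and 158 CPM at 6 weeks, 118, 143 and 167 CPM at 12 weeks and 120, 145 and 340 CPM at 18 weeks. The highest value was that of 18-week fish 1, and the log2FC of 0.31 (SE 0.119, FDR = 0.0444) became 0.14 without it (FDR = 0.177). U2AF1, the small U2AF subunit that reads the AG at the end of the intron, has a pair of loci. The scarcer one (XLOC_011793) averaged 16.6 ± 2.7 CPM at 18 weeks and 13.1 ± 2.63 CPM at 6 weeks (SD, n = 10 each) and rose by 0.34 (SE 0.117, FDR = 0.0266). The more abundant one (XLOC_020184) averaged 42.5 ± 3.73 CPM at 18 weeks and 47.1 ± 3.94 CPM at 6 weeks (SD, n = 10 each) and was not called (log2FC -0.15, SE 0.0783, FDR = 0.160). The difference between these copies was not tested. SF3B2 (XLOC_008752), another SF3B subunit, had 50.6, 57.4 and 67.6 CPM at 6 weeks, 41.1, 54.1 and 69.8 CPM at 12 weeks and 36.5, 49.3 and 57.0 CPM at 18 weeks, a log2FC of -0.24 (SE 0.0880, FDR = 0.0338) that was 0.07 with library size alone.

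Of the 16 Sm and snRNP-specific loci of the core particles none rose and 2 fell, while 14.0% of all tested loci were called higher and 15.2% lower. On so few loci these counts are not read as a trait of the core particles. Their median log2FC without regard to sign was 0.13, against 0.24 over all loci, and the part of expression level in this was not tested. SNRPD3, a subunit of the Sm ring and the most abundant of them, had 75.5, 92.4 and 109 CPM at 6 weeks, 86.1, 91.6 and 106 CPM at 12 weeks and 87.8, 101 and 119 CPM at 18 weeks (log2FC 0.13, SE 0.0709, FDR = 0.181). SNRPC (XLOC_016474), the U1-C protein that steadies U1 on the 5′ splice site, averaged 64.6 ± 7.59 CPM at 18 weeks and 75.9 ± 5.71 CPM at 6 weeks (SD, n = 10 each). Its log2FC was -0.24 (SE 0.0716, FDR = 0.0118), with 6 of 10 old fish below every young fish, and 0.07 with library size alone. Among 9 tested LSM loci, not all of which encode proteins of the U6 ring, 1 rose, LSM8 (XLOC_004984). LSM8 is the subunit that sets the nuclear LSM ring on U6 apart from the cytoplasmic one. It averaged 29.4 ± 3.59 CPM at 18 weeks and 24.5 ± 2.14 CPM at 6 weeks (SD, n = 10 each), a log2FC of 0.27 (SE 0.0900, FDR = 0.0224). LSM4, the most abundant of the ring, had a log2FC of 0.14 (SE 0.0920, FDR = 0.273) and 84.5 CPM in 18-week fish 1, its highest value.

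The retinitis pigmentosa genes named at the start, chosen here after their values were seen, showed small falls or no call. SNRNP200 (XLOC_023707), the helicase that unwinds U4 from U6, averaged 18.8 ± 3.72 CPM at 18 weeks and 23.7 ± 3.18 CPM at 6 weeks (SD, n = 10 each). It fell by 0.34 (SE 0.128, FDR = 0.0413), and the fall missed the threshold without 18-week fish 1, which was lowest at 11.3 CPM (-0.28, FDR = 0.0670). PRPF3 (XLOC_001861), a tri-snRNP protein, averaged 24.8 ± 4.49 CPM at 18 weeks and 30.3 ± 3.57 CPM at 6 weeks (SD, n = 10 each), a log2FC of -0.29 (SE 0.102, FDR = 0.0290) that was 0.01 with library size alone. The RefSeq genes of PRPF3 and PRPF6 overlap other genes, whose reads may be counted with them. PRPF31, which tethers U4/U6 to U5, had a log2FC of -0.25 (FDR = 0.160), PRPF6, the bridge within the tri-snRNP, of -0.15 (FDR = 0.154), and PRPF8, the scaffold of the catalytic centre, of 0.01 (FDR = 0.975).

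Across the 10 tested PRPF loci none rose and 3 fell, PRPF3 and PRPF4BB among them. PRPF4BB (XLOC_014085), a kinase of the tri-snRNP, had 29.1, 35.6 and 38.4 CPM at 6 weeks, 24.1, 33.6 and 36.3 CPM at 12 weeks and 25.0, 27.1 and 35.6 CPM at 18 weeks. It fell by 0.32 (SE 0.0850, FDR = 0.00463), and 6 of 10 old fish were below every young fish, the lowest of which stood far under the others. Its log2FC was -0.01 with library size alone.

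RBM proteins, a mixed family named only for their RNA-binding motif, held both loci with a log2FC beyond 1, and 6 of its 30 tested loci rose and 8 fell. RBM44 (XLOC_020033), a protein of the intercellular bridges of mouse germ cells, had 0.952, 2.16 and 3.74 CPM at 6 weeks, 2.66, 4.04 and 6.38 CPM at 12 weeks and 3.47, 4.89 and 8.71 CPM at 18 weeks. The old fish lay above every young fish in 8 of 10 cases, on 19 to 39 reads per old fish and 4 to 16 per young fish. The log2FC was 1.22 (SE 0.221, FDR = 6.81e-05), and it was 1.16 (FDR = 0.000123) without 18-week fish 1 and 1.13 (FDR = 0.0116) with the RPE markers in the fit.

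RBM47 (XLOC_006481), an RNA-binding protein of epithelia and in mouse a cofactor of APOBEC1 in RNA editing, went the other way. It had 6.44, 12.4 and 19.6 CPM at 6 weeks, 0.884, 8.15 and 21.5 CPM at 12 weeks and 2.0, 4.89 and 8.38 CPM at 18 weeks, with 9 of 10 old fish below every young fish (log2FC -1.34, SE 0.284, FDR = 0.000444). Its level moved with the RPE markers from fish to fish. The 12-week fish 7 had the highest RBM47 level of all 30 fish and the highest mean of the RPE markers, and the 12-week fish 8 had the lowest of both. With the RPE markers in the fit the log2FC between 18 and 6 weeks was 0.07 (FDR = 0.888), and its fall with age and with the RPE markers cannot be told apart. RBM47 was also the tested member found in the smallest share of single cells (0.764%), next to RBM44 (0.825%).

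RBM26 (XLOC_012866), a zinc finger protein of nuclear RNA surveillance, had 54.5, 61.7 and 68.0 CPM at 6 weeks, 43.6, 52.1 and 60.1 CPM at 12 weeks and 23.8, 49.3 and 53.6 CPM at 18 weeks. All old fish were below all young fish, and the log2FC of -0.40 (SE 0.0953, FDR = 0.00140) was -0.33 (FDR = 0.000359) without 18-week fish 1, which was far below the rest. RBM5 (XLOC_015902), a regulator of the splicing of apoptosis genes, was the most abundant RBM locus, at 101, 174 and 217 CPM at 6 weeks, 119, 159 and 189 CPM at 12 weeks and 31.9, 123 and 147 CPM at 18 weeks. Its ages overlapped, and it fell by 0.56 (SE 0.153, FDR = 0.00546), or by 0.45 (FDR = 0.00111) when 18-week fish 1 was left out. RBM43 (XLOC_012522) averaged 35.2 ± 5.20 CPM at 18 weeks and 28.3 ± 4.94 CPM at 6 weeks (SD, n = 10 each) and rose by 0.32 (SE 0.106, FDR = 0.0205), but its RefSeq gene overlaps myo1g. The other falls were those of RBM28, RBM41, RBM14A, RBM14B and RBM34, with log2FC between -0.65 and -0.32 (the RefSeq gene of RBM14B overlaps actn3b), and the other rises those of RBM24A, RBM15, RBM4.1 and RBM4.2, with log2FC between 0.27 and 0.67. Of these, RBM15, RBM4.1 and RBM4.2 lost their calls without 18-week fish 1 (FDR = 0.0727, 0.0861 and 0.117).

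Among the tissue-restricted regulators, 8 of 17 tested loci fell and 1 rose, while 15.2% of all tested loci were called lower and 14.0% higher. With library size alone, only the fall of CELF5(2OF2) was still called (log2FC -0.50, FDR = 0.0155). Of the 8 falls, 6 were at the 7 tested CELF loci, a family that binds UG-rich intron sequence and of which CELF3, CELF4, CELF5 and CELF6 are enriched in neurons. The family was singled out after its values were seen. CELF3A (XLOC_024509) had 128, 141 and 172 CPM at 6 weeks, 118, 129 and 149 CPM at 12 weeks and 83.9, 105 and 123 CPM at 18 weeks. All old fish were below all young fish, and CELF3A had the smallest FDR of any member (log2FC -0.46, SE 0.0739, FDR = 1.07e-05). CELF2 (XLOC_005677) had 87.1, 91.8 and 106 CPM at 6 weeks, 71.6, 93.3 and 118 CPM at 12 weeks and 61.9, 72.8 and 85.9 CPM at 18 weeks, a log2FC of -0.40 (SE 0.0848, FDR = 0.000477) without any overlap between old and young fish. CELF5(2OF2) (XLOC_023163) had 14.2, 17.1 and 21.3 CPM at 6 weeks, 7.99, 14.9 and 24.3 CPM at 12 weeks and 3.21, 10.8 and 13.9 CPM at 18 weeks. It likewise showed no overlap between old and young fish and fell by 0.80 (SE 0.170, FDR = 0.000436).

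CELF3B (XLOC_011274) was the most abundant CELF locus, at 139, 177 and 218 CPM at 6 weeks, 132, 145 and 172 CPM at 12 weeks and 118, 128 and 189 CPM at 18 weeks (log2FC -0.35, SE 0.0829, FDR = 0.00148). CELF4 and CELF6 fell by 0.38 and 0.33 (FDR = 0.00490 each). The RefSeq genes matched to CELF3B and CELF4 overlap other genes, whose reads may be counted with them. The exception was CELF2 (2 OF 2) (XLOC_019583), with 64.6, 73.2 and 95.0 CPM at 6 weeks, 60.1, 68.1 and 79.1 CPM at 12 weeks and 69.0, 78.3 and 120 CPM at 18 weeks, where the ages overlapped (log2FC 0.14, SE 0.0869, FDR = 0.237). The summed level of the 9 CELF loci, including 2 that were too scarce to test, was 470 to 534 CPM at 18 weeks, against 580 to 697 CPM at 6 weeks. All 6 falls were called without 18-week fish 1 as well, and 5 CELF loci were called lower with the RPE markers in the fit. The median log2FC of the family was -0.38, and with library size alone it was -0.07, so that the means of the summed level were then close, 564 CPM at 18 weeks and 573 CPM at 6 weeks. The summed markers of bipolar, amacrine, horizontal and ganglion cells had a median of 2335 CPM at 18 weeks and 2097 CPM at 6 weeks. Single loci among them were called in both directions. The summed markers of cones, which are neurons too, had a median of 4774 CPM at 18 weeks and 7356 CPM at 6 weeks. The part of these cell types in the CELF values was not tested.

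RBFOX3L (XLOC_010144), a relative of the neuronal marker NeuN, averaged 54.2 ± 8.06 CPM at 18 weeks and 71.0 ± 9.13 CPM at 6 weeks (SD, n = 10 each) and fell by 0.39 (SE 0.0999, FDR = 0.00322). RBFOX2(2OF2) (XLOC_013540), the other tested member of that family, had a log2FC of -0.12 (FDR = 0.330). The muscleblind loci split. MBNL2(1OF2) (XLOC_011833) had 132, 162 and 184 CPM at 6 weeks, 130, 172 and 219 CPM at 12 weeks and 75.4, 128 and 159 CPM at 18 weeks, and fell by 0.34 (SE 0.0972, FDR = 0.00799). MBNL1 (XLOC_014778) had 12.6, 15.7 and 24.1 CPM at 6 weeks, 13.6, 16.3 and 25.8 CPM at 12 weeks and 17.4, 21.0 and 26.3 CPM at 18 weeks, and rose by 0.33 (SE 0.126, FDR = 0.0440). Its copy MBNL1(1OF2) was not called (log2FC -0.07, FDR = 0.714), and the difference between the loci was not tested. None of the 4 tested PTBP loci, repressors that neurons turn down as they mature, was called at 18 against 6 weeks, and neither was NOVA1 (log2FC 0.24, FDR = 0.154).

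The 18-week fish 1 weighed on many of these values. It was the highest of its age at 48 of the 123 tested loci and the lowest at 48 more, whereas the next fish in this order was the extreme at 27. Its SR proteins summed to 1510 CPM, against at most 1152 CPM in the other 9 old fish, and its U2 and 3′ splice site factors to 756 CPM, against at most 571 CPM. RBM proteins summed to 709 CPM in it and to at least 836 CPM in the others. SF3B1 stood at 340 CPM in it, against a median of 144 CPM in the other 9, and RBM5 at 31.9 CPM, against 129 CPM. In the same library the share of reads on no locus was the lowest of all fish (18.0%) and the share counted as ambiguous the highest (1.85%), and their part in these values was not tested. Without it 12 members rose and 26 fell, while 14.0% and 16.4% of all loci did, and 10 of the 16 rises and 25 of the 26 falls were called again. The 6 rises lost were those of SRSF6, HNRNPUA, SF3B1, RBM15, RBM4.1 and RBM4.2, and the fall lost was that of SNRNP200.

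**Figure D4:**
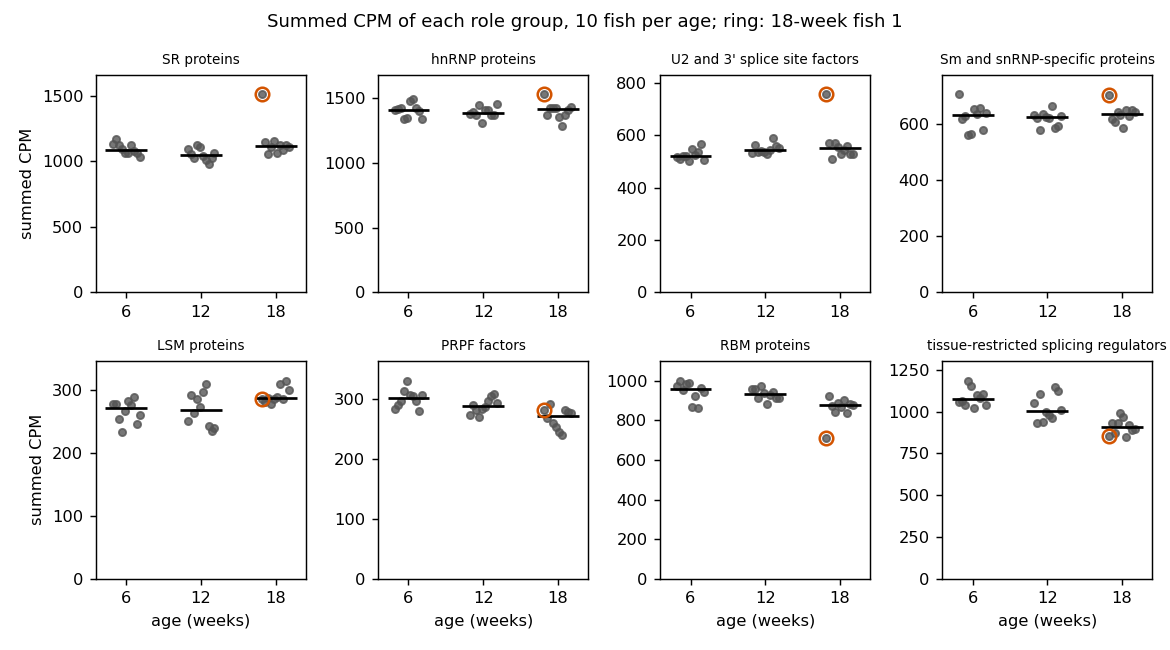
Summed CPM (y axis, from 0, TMM scaling) of each role group in each fish at 6, 12 and 18 weeks (x axis, 10 fish per age, line: median), with 18-week fish 1 ringed. The ringed fish lies apart for SR proteins (1510 CPM), for U2 and 3′ splice site factors (756 CPM) and for RBM proteins (709 CPM), and the 18-week fish lie under all 6-week fish only for the tissue-restricted regulators, whose means with library size alone are 1017 CPM at 18 weeks and 982 CPM at 6 weeks.

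With the RPE markers in the fit, 6 members rose and 13 fell between 6 and 18 weeks, while 6.45% and 7.9% of all loci were called in these directions. Of the 16 rises 3 were called again, SRSF5A (log2FC 0.43, FDR = 0.0357), RBM44 and MBNL1 (0.60, FDR = 0.0141), and of the 26 falls 13 were, CELF3A (-0.49, FDR = 0.00112) and CELF2 (XLOC_005677, -0.62, FDR = 0.000140) among them.

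When the changes set in was asked by comparing adjacent ages. At 12 against 6 weeks no member was called in either direction, with 2 higher and 5 lower at an unadjusted p under 0.05, while 1.3% of all loci were called higher, 0.909% lower and 0.501% past both thresholds. DESeq2 called 1 member at this step, RBM44 (log2FC 0.80, FDR = 0.0375). Without 18-week fish 1, which bears on the shared estimate of spread, edgeR called RBM44 (0.79, FDR = 0.0375) higher and RBM26 (-0.26, FDR = 0.0201) and CELF3B (-0.24, FDR = 0.0405) lower. At 18 against 12 weeks 6 members were higher and 10 lower, against 5.19% and 6.93% of all loci, and none passed both thresholds, against 1.02%. SRSF5A (0.50, SE 0.0984, FDR = 0.000595) had the smallest FDR of the rises, the others being SRSF2(2OF2), SRSF3(2OF2) (XLOC_011520), HNRNPA0(1OF5), CELF2 (2 OF 2) and PTBP2B, a neuronal member of the PTBP family. MBNL2(1OF2) (-0.48, SE 0.0971, FDR = 0.000911) had the smallest FDR of the falls, the others being CELF2 (XLOC_005677), CELF3A, CELF5(2OF2), HNRNPA0 (XLOC_012280), TRA2A, RBM5, RBM19, RBM28 and RBM47. With library size alone, which moves all loci by construction, 35 members (28.5%) were called higher and 2 (1.63%) lower at this step. The share of all loci called on that scale at this step is not given here, so these counts are not read as a trait of the members.

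The 42 loci called at 18 against 6 weeks covered the distance unevenly. For the 16 that rose the median log2FC was 0.14 from 6 to 12 weeks and 0.22 from 12 to 18 weeks, and for the 26 that fell it was -0.10 and -0.25. The later step was the larger one for 13 of the 16 (81.2%) and for 21 of the 26 (80.8%), against 60.0% of the 1952 loci called higher and 70.2% of the 2124 called lower over the whole table. At that later step 3 of the 16 (18.8%) and 9 of the 26 (34.6%) were also called, against 30.5% and 38.1% over the whole table. These steps share the 12-week fish, so they are not independent. RBM44 had the larger part of its log2FC in the earlier step (0.80, SE 0.230), whereas SRSF5A and MBNL2(1OF2) were at -0.01 and 0.14 there. RBM44 was not called at that step in the TMM-scaled fit of all 30 fish, and the difference between its steps was not tested.

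**Figure D5:**
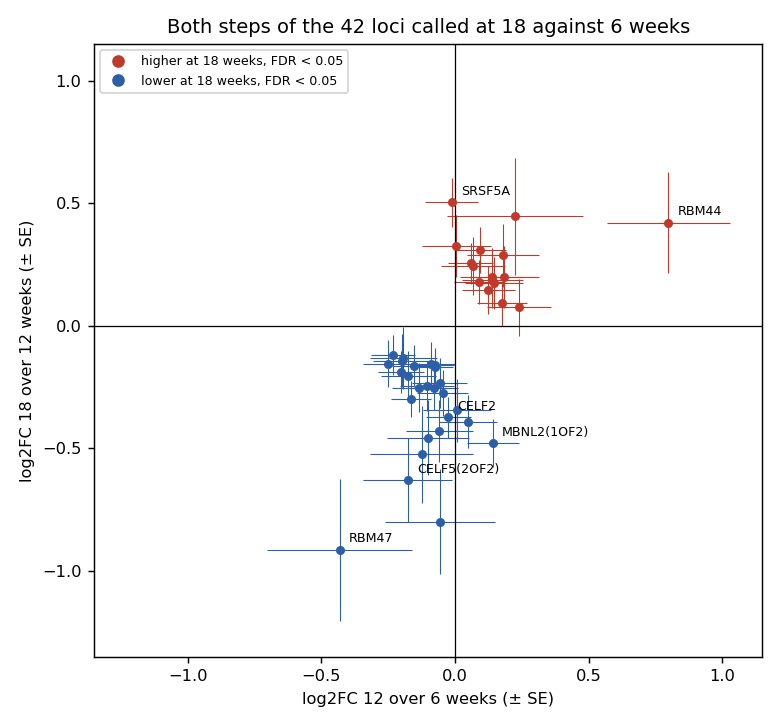
The log2 fold change of the 42 loci called at 18 against 6 weeks in the earlier step (12 over 6 weeks, x axis) and the later one (18 over 12 weeks, y axis), with SE bars and TMM scaling. All 16 risen loci lie above 0 and all 26 fallen loci below 0 on the y axis, while 15 and 23 do so on the x axis; with library size alone all points shift upwards, by a median over all loci of 0.19 in the later step.

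Splicing genes outside the name rule, drawn up as 6 lists of 130 names were found at 145 loci. Of the 129 tested, 15 rose (11.6%) and 23 fell (17.8%) at 18 against 6 weeks, against 14.0% and 15.2% of all tested loci, and their median log2FC was -0.01. All 15 rises and 4 of the 23 falls were called with library size alone, 13 and 22 without 18-week fish 1, and 6 and 12 with the RPE markers in the fit. The clearest rises were those of the DEAD-box helicases DDX5 (XLOC_008565), with 371 ± 61.4 CPM at 18 weeks and 236 ± 20.5 CPM at 6 weeks (SD, n = 10 each, log2FC 0.65, FDR = 9.78e-07), and DDX17 (3 OF 3) (XLOC_006783), with 111 ± 19.3 CPM and 66.4 ± 10.3 CPM (log2FC 0.74, FDR = 7.90e-07). CIRBP, the cold-inducible RNA-binding protein, had 365 ± 47.3 CPM at 18 weeks and 260.5 ± 23.6 CPM at 6 weeks (log2FC 0.49, FDR = 5.49e-06). Among the falls, SRPK1A (XLOC_021604), a kinase that phosphorylates SR proteins and so governs their entry into the nucleus, had 81.1 ± 7.95 CPM at 18 weeks and 115 ± 12.7 CPM at 6 weeks (log2FC -0.51, FDR = 4.79e-06, and -0.21 with library size alone). The neuronal RNA-binding proteins ELAVL3 and ELAVL4 fell by 0.37 each (FDR = 2.85e-05 and 0.00113), and their log2FC was -0.07 each with library size alone. The only ones past both thresholds were a pair of scarce loci named THRAP3B, an SR-related protein, with a log2FC of -1.23 (XLOC_001765, FDR = 0.000188) and -1.11 (XLOC_004105, FDR = 0.00644). These genes were picked from the lists after their values were seen, by their small FDR.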

How the data were processed

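The authors trimmed the QuantSeq reads and aligned and counted them, per the labels with Trim Galore 0.6.7, cutadapt 3.4, STAR 2.7.0, SAMtools 1.9.4 and HTSeq 0.11.2, and deposited raw counts per locus for each fish. The strand setting of the counting is not given in the sources used here. Counts of the authors' summary lines (no feature, ambiguous) stayed out of library sizes and tests, and made up 18.0% to 27.7% (no feature) and 0.838% to 1.85% (ambiguous) of all reads in the count files. The deposited locus table gave names and a percent detection for each locus, with no sample named and no error. From its name it was read here as the percent of single cells, all ages pooled, in which the authors detected the locus.

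Loci passing filterByExpr were scaled with TMM factors and tested in one fit of all 30 fish with age as the only term (R 4.3.3, edgeR 4.0.16). The SE of a log2FC was derived from its F statistic (log2FC over the root of F). The procedure was also run on simulated counts in which few loci changed, unlike these data. The outcome is not given here, and no result above rests on it. Alternatives were library size alone, RLE factors, library sizes without loci above 1% of counts, no filter, a CPM of at least 1 in 10 fish, the 20 fish compared, the replicate number as a block, the RPE markers as a covariate, fish left out, other thresholds and DESeq2 1.42.0. Symbols of neighbouring genes came from RefSeq (assembly NfurGRZ-RIMD1, another build than the authors', so no coordinates are given), which matched 110 of the 143 loci. Of 95 tested loci with a match, 19 overlap another RefSeq gene.

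Named loci were those past both thresholds, per role the 2 higher and 2 lower loci of smallest FDR (3 for tissue-restricted regulators), the most abundant of each role, the 2 smallest FDR in each direction at the other steps, and their copies. Others are said to be chosen after their values were seen or are listed to account for a count, and 1 named locus is not reported here. Members and lists were chosen with earlier results of these data known. Each library is a separate fish, and p-values weigh the difference between ages against the spread between fish.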

Additional observations from a re-analysis of the deposited data

Results flagged for a closer look

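Single fish far from the other 9 of their age were looked for in the log2 CPM of the 38 named loci and in summed levels, 141 checks in all, of which 20 were positive. Chance alone would mark about 1 in 20 groups. Most concern 18-week fish 1. It was the highest of its age for SF3B1 (8.41 log2 CPM, next fish 7.57), SRSF11 (XLOC_023419, 8.27, next 7.86), CELF2 (2 OF 2) (6.91, next 6.54), SRSF5A (6.88, next 6.42) and LSM4 (6.41, next 5.98). It was the lowest for HNRNPA0 (XLOC_004618, 7.08, next 7.54), HNRNPUL1 (6.40, next 6.61), MBNL2(1OF2) (6.25, next 6.87), RBM5 (5.01, next 6.66), RBM26 (4.60, next 5.43) and SNRNP200 (3.56, next 4.10). Its summed levels were the highest of its age for all members (6625 CPM, next 6181 CPM), SR proteins (1510 CPM, next 1152 CPM) and U2 and 3′ splice site factors (756 CPM, next 571 CPM), and the lowest for RBM proteins (709 CPM, next 836 CPM).

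The other marks were spread over 4 fish. At 6 weeks, fish 10 was lowest for SRSF5A (5.26 log2 CPM, next 5.68) and MBNL1(1OF2) (2.85, next 3.34), and fish 9 was lowest for PRPF4BB (4.88, next 5.08). At 12 weeks, fish 8 was lowest for RBM47 (0.40, next 2.43) and fish 7 highest for MBNL1 (XLOC_014778, 4.71, next 4.27). No cause was tested.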

How the results depend on the processing

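At 18 against 6 weeks the 16 rises and 26 falls became 62 and 3 with library size alone and 6 and 13 with the RPE markers as a covariate, and the rises became 9 in a fit of the 20 fish compared. The rises lost in that last fit were those of SRSF6, HNRNPUA, SF3B1, RBM4.1, RBM4.2, RBM24A and MBNL1 (XLOC_014778). The 1 rise and 1 fall past both thresholds became 16 and 26 at the FDR alone and 2 and 5 at a log2FC of at least 0.5, and the falls became 2 without a filter and 2 with the RPE markers. At 12 against 6 weeks, where none was called, 1 rise was called with library size alone, without loci above 1%, in the 20 fish, with DESeq2, and without 18-week fish 1 or fish 1 and 4, the last 2 also giving 2 falls. At 18 against 12 weeks the 6 rises and 10 falls became 35 and 2 with library size alone, and the rises 3 in the 20 fish and 2 without fish 1 and 4; the counts past both thresholds became 6 and 10 at the FDR alone and 1 and 3 at 0.5. At 18 against 6 weeks RBM47 changed sign with the RPE markers (0.0704). With library size alone 38 of the 123 tested members changed sign, of which 9 were called under that scaling or under TMM, among them HNRNPR (0.29), SRSF11 (XLOC_023419, 0.21), SNRPC (0.0687), SF3B2 (0.0672) and HNRNPUL1 (0.0621). The cause was not tested, except that library size alone moves all loci by construction. With RLE factors no count moved by over 1.5 times. Shares of all loci are given above for library size alone, the RPE markers and without 18-week fish 1, at 18 against 6 weeks only. Whether the counts in the other fits moved with the whole table is not reported here. The replicate numbers are not stated to pair the fish. Deviations of same-numbered fish were weakly correlated (between -0.11 and 0.19), which cannot show how the fish were numbered. With the replicate block 12 rose and 27 fell at 18 against 6 weeks. The largest SE among the tested members was that of RBM47 (0.284), ahead of HNRNPUL2 (0.278) and LSM10 (0.267).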
